A study of Mus musculus with 18 samples.

Results

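Kallikreins are secreted serine proteases encoded by a cluster of neighbouring genes. The 9 genes described here are Klk1, Klk5, Klk6, Klk7, Klk8, Klk10, Klk11, Klk13 and Klk14, taken from the 19505 genes that the array table names, where 25 genes are called Klk with a number. They were chosen by symbol together with their log2 intensities in the 6 tissue and genotype groups of these same arrays. Their levels and differences between groups are therefore given as a description, with no p, and support nothing further.

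The study measured total RNA of pituitary and skin on Clariom S arrays, an Affymetrix platform that reads most genes with 1 probe set, with 3 arrays per group. The pituitary groups were lncKO (samples 13 to 15), miR-205 KO (samples 16 to 18) and wild type (samples 10 to 12). The skin groups were lncKO (samples 4 to 6), miR-205 KO (samples 7 to 9) and wild type (samples 1 to 3). The lncKO mice carry a knockout of MIR205HG, a long noncoding RNA gene, and the miR-205 KO mice one of the microRNA that is processed from the same locus. All mice are labelled C57BL/6, female and 5 to 6 weeks old. The labels name no promoter-driven Cre or conditional allele and leave open whether each array of a group stands for a mouse of its own, so every test reflects only variation among the arrays at hand, possibly technical. The extraction text of every sample, pituitary included, speaks of ear tissue. The mature strand of miR-205, the RNA that the miR-205 KO mice lack, is shown with its seed (bases 2 to 8) in capitals, from RefSeq (GRCm38.p6, chr1:193507503-193507524, minus strand).
miR-205-5p: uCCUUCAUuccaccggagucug

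In the epidermis, kallikreins work in the outermost layers. Klk5 and Klk14 are trypsin-like enzymes and Klk7 is chymotrypsin-like. In human skin KLK5 activates itself and the precursors of KLK7 and KLK14, and the active enzymes cut corneodesmosomes, the junctions that hold dead cells of the surface together, so that these cells are shed. The inhibitor Spink5 holds them back. Klk1, tissue kallikrein, has another role: it cuts kininogens to release kinins, peptides that act on blood vessels, and glandular tissues such as salivary gland, kidney and pituitary make it.

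Every pituitary array held RNA of Y-linked genes although all mice are labelled female. Kdm5d lay between 172 and 318 in pituitary and between 6 and 9 in skin, and Uty lay between 1869 and 2339 in pituitary and between 6 and 13 in skin (n = 9 arrays per tissue). Sex and tissue therefore cannot be told apart. The tissue labels fitted their marker lists. The 7 pituitary hormone genes averaged a log2 intensity of 18.03 to 18.57 on the pituitary arrays, and the 10 measured markers of differentiated keratinocytes averaged 4.03 to 4.20 there. Within skin, 2 arrays stood apart: the mean log2 intensity of 9 hair genes was 7.41 on wild-type array 1 and 8.01 on wild-type array 2, against 4.57 on wild-type array 3, 4.41 to 5.31 in lncKO skin and 4.80 to 5.00 in miR-205 KO skin. Wild-type skin array 1 also had hormone genes at a mean log2 intensity of 5.70, against 4.37 and 4.39 on the other wild-type skin arrays. For the kallikreins that fell in skin and for some related genes, log2 changes are also given without arrays 1 and 2. That fit keeps wild-type array 3 alone, so a call lost there cannot be laid to arrays 1 and 2.

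Of the 9 kallikreins, 4 (Klk6, Klk7, Klk8 and Klk11) were above an intensity of 16 on all 18 arrays. Intensities are the authors' values on a linear scale, and 16 is the floor used here to judge dim probe sets, since no detection calls were used. Klk14 was at or below 16 on all 18 arrays, between 9 and 16 in skin and in pituitary alike, so nothing can be said of its direction. Levels are compared between groups for each gene and not between genes, since probe sets differ in brightness.

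In wild-type mice, 7 of the 9 kallikreins were lower in pituitary than in skin and Klk1 was higher. Klk7, whose human form is also called stratum corneum chymotryptic enzyme, had intensities of 25, 20 and 21 in wild-type pituitary, against 77397, 81006 and 72280 in wild-type skin. Klk5 had 12, 9 and 10 in wild-type pituitary, against 2370, 3530 and 3146 in wild-type skin. Klk6, known in the nervous system as neurosin, had 24, 31 and 31 in wild-type pituitary, against 10651, 4382 and 4742 in wild-type skin. None of these 3 pairs of groups overlapped. Klk10 lay between 10 and 14 in wild-type pituitary and between 385 and 468 in wild-type skin, and Klk8, also called neuropsin and studied in brain as well as skin, lay between 28 and 34 in wild-type pituitary and between 406 and 894 in wild-type skin. Klk11 lay between 30 and 36 in wild-type pituitary and between 528 and 652 in wild-type skin. Klk13 was the closest, between 11 and 23 in wild-type pituitary and between 41 and 294 in wild-type skin. Klk1 ran the other way, with 604, 323 and 581 in wild-type pituitary, against 13, 10 and 21 in wild-type skin. The log2 differences, pituitary over skin, ran from -11.78 ± 0.19 for Klk7 to -2.31 ± 0.50 for Klk13 among the skin kallikreins, and that of Klk1 was 5.11 ± 0.30 (log2, ± SE from limma, n = 3 arrays per group). In limma's fit of all 18 arrays, 8 of the 9 passed an adjusted p of 0.05, where 52.1% of all probe sets passed. Nothing is read from that count, since the levels chose the genes. Where a group lies at the floor its fold is uncertain: with intensities below 16 raised to 16, Klk5 differed by -7.54, Klk10 by -4.74 and Klk1 by 4.79 on the log2 scale. Sex differs with tissue in every one of these comparisons.

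**Figure D1:**
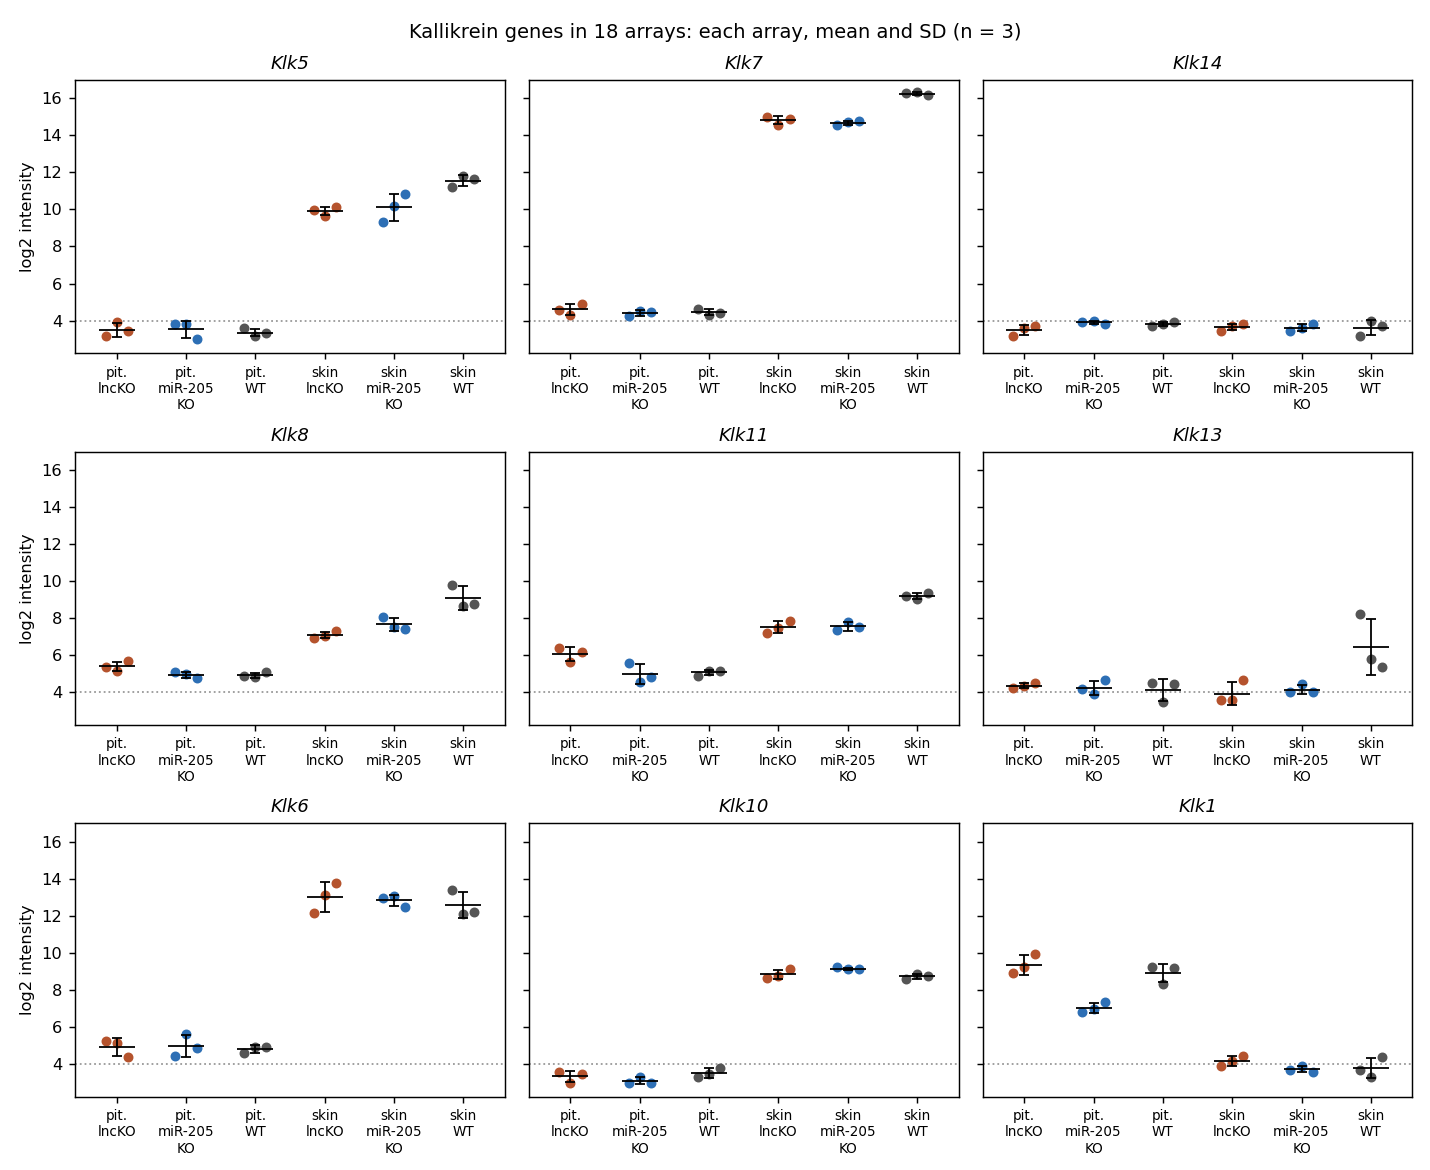
Log2 intensity (vertical axis) of the 9 kallikreins on each array, 1 panel per gene, with the 3 pituitary groups left of the 3 skin groups. Points are arrays, bars mark the mean ± SD (n = 3), and the dotted line is the floor at log2 intensity 4. Klk5, Klk7, Klk8, Klk11 and Klk13 stand lower in both knockout skins than in wild-type skin, Klk6 and Klk10 do not, Klk1 is high in pituitary and lowest there in miR-205 KO, and Klk14 stays at the floor.

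In lncKO skin, Klk5, Klk7, Klk8, Klk11 and Klk13 fell against wild type, and in miR-205 KO skin Klk5, Klk7, Klk8, Klk11 and Klk13 fell. Both comparisons share the 3 wild-type arrays, so they are not independent of each other. Klk7 had 32235, 24138 and 29325 in lncKO skin, 23957, 27028 and 27425 in miR-205 KO skin, and 77397, 81006 and 72280 in wild-type skin. All 6 knockout arrays lay below all 3 wild-type arrays, and Klk7 fell by 1.44 ± 0.20 in lncKO and by 1.56 ± 0.20 in miR-205 KO on the log2 scale (± SE, n = 3 arrays per group), or 2.71-fold and 2.94-fold. Klk5, which is upstream of Klk7 in the human cascade, had 1001, 801 and 1099 in lncKO skin, 642, 1160 and 1787 in miR-205 KO skin, and 2370, 3530 and 3146 in wild-type skin. It fell by 1.63 ± 0.33 in lncKO and by 1.44 ± 0.33 in miR-205 KO on the log2 scale. With intensities below 16 raised to 16, Klk5 still changed by -1.44 in miR-205 KO but no longer passed. Its knockout arrays did not overlap with wild type, and the miR-205 KO arrays spread more widely than those of lncKO. In these bulk samples, fewer cells of a type and less RNA per cell cannot be told apart.

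Klk8 had 121, 134 and 156 in lncKO skin, 267, 182 and 174 in miR-205 KO skin, and 894, 406 and 439 in wild-type skin. The lncKO arrays were all below the miR-205 KO arrays, and both knockouts lay below wild type, with log2 changes of -1.99 ± 0.30 in lncKO and -1.41 ± 0.30 in miR-205 KO. Klk11, a trypsin-like kallikrein first described from brain, had 147, 178 and 234 in lncKO skin, 162, 226 and 185 in miR-205 KO skin, and 587, 528 and 652 in wild-type skin. The ranges of the knockouts overlapped, and the log2 changes were -1.68 ± 0.24 in lncKO and -1.63 ± 0.24 in miR-205 KO. Klk13, a trypsin-like member known mainly from human tissues, had 12, 12 and 25 in lncKO skin, 16, 22 and 16 in miR-205 KO skin, and 294, 56 and 41 in wild-type skin. Both knockouts were at or near the floor. The log2 change was -2.52 ± 0.57 in lncKO and -2.30 ± 0.57 in miR-205 KO. With values below 16 raised to 16 it was -2.24 in lncKO and -2.30 in miR-205 KO, and neither then passed. No miR-205 KO or wild-type array lay below 16, so the floor left the miR-205 KO change as it was. Wild-type array 1 alone was far above the other wild-type arrays, and without it Klk13 changed by -1.64 in lncKO and by -1.43 in miR-205 KO.

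Klk6 and Klk10, which lie among those genes, did not follow them. Klk6 had 4468, 8996 and 13960 in lncKO skin, 7895, 8433 and 5784 in miR-205 KO skin, and 10651, 4382 and 4742 in wild-type skin. All 3 groups overlapped, with log2 changes of 0.45 ± 0.41 in lncKO and 0.27 ± 0.41 in miR-205 KO. Klk10, known from human breast epithelium as a normal-epithelium gene, had 394, 434 and 561 in lncKO skin, 596, 557 and 553 in miR-205 KO skin, and 385, 468 and 431 in wild-type skin. The miR-205 KO arrays stood above all wild-type arrays, yet the change of 0.41 ± 0.21 did not pass the threshold, and the lncKO arrays overlapped with wild type (0.10 ± 0.21). Klk1 stayed between 12 and 22 in knockout skin and between 10 and 21 in wild-type skin.

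Thus 5 of 9 kallikreins were lower in lncKO skin and none was higher, where 9.17% of all probe sets passed as lower and 6.21% as higher. In miR-205 KO skin 5 of 9 were lower and none was higher, where 10.0% passed as lower and 6.79% as higher. Since these contrasts were among the values that chose the genes, nothing is read from the counts. The split of all probe sets depends on scaling: with quantile normalization, 7.71% were higher and 7.54% lower in lncKO skin, and 8.08% higher and 7.99% lower in miR-205 KO skin, while the 5 kallikreins stayed lower in both. The median log2 change of the 9 was -1.44 in lncKO and -1.41 in miR-205 KO, against -0.07 for all probe sets in both. Without wild-type arrays 1 and 2, the arrays with high hair genes, wild-type array 3 alone was left, so only log2 changes are given. Klk13 then changed by -1.42 in lncKO and by -1.2 in miR-205 KO. In that reduced fit Klk7 changed by -1.35 in lncKO and -1.47 in miR-205 KO, Klk11 by -1.83 and -1.78, Klk8 by -1.69 and -1.11, and Klk5 by -1.71 and -1.52, on the log2 scale.

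**Figure D2:**
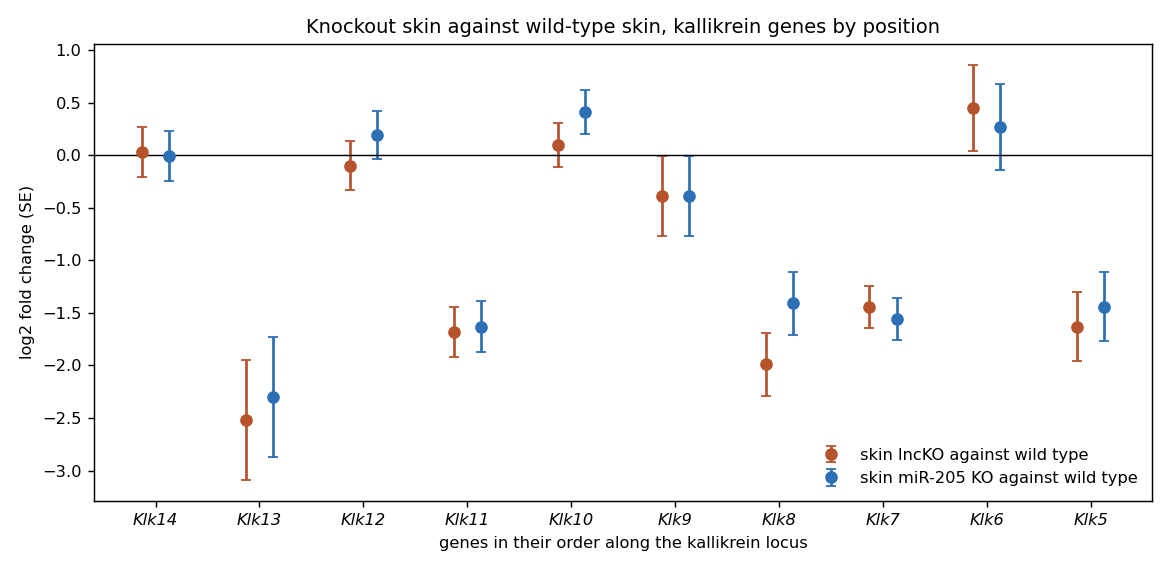
Log2 fold change in skin against wild type (vertical axis, bars ± SE, n = 3 arrays per group) for the kallikreins in their order along chromosome 7 (horizontal axis), for lncKO and for miR-205 KO. Klk13, Klk11, Klk8, Klk7 and Klk5 lie below 0 in both knockouts by more than their SE. Of the genes among them, Klk9 lies at -0.39 ± 0.38 in each knockout. Klk10 lies at 0.10 ± 0.21 in lncKO and 0.41 ± 0.21 in miR-205 KO, and Klk6 at 0.45 ± 0.41 and 0.27 ± 0.41. Klk14 and Klk12 lie within their SE of 0.

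The knockouts were also compared directly. Between lncKO skin and miR-205 KO skin, 0 of 9 kallikreins passed in limma's fit, where 0.0% of all probe sets passed. At an unadjusted p under 0.05 the counts were 0 of 9 kallikreins and 637 of 19572 probe sets. Klk8 had the widest gap among the 9, with a log2 difference of -0.58 ± 0.30, lncKO over miR-205 KO, and Klk10 differed by -0.31 ± 0.21. A p that misses the threshold does not show that the knockouts act alike.

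Some marker genes of cell types also passed between knockout and wild-type skin. None of 5 basal keratinocyte markers passed in either knockout, with medians of 0.03 in lncKO and 0.06 in miR-205 KO. Of 10 measured markers of differentiated keratinocytes, the cells that make skin kallikreins, 2 rose (Krt10 and Dsg1a) and 3 fell (Casp14, Tgm1 and Cdsn) in both knockouts. Their summed level on the log2 scale was 19.76 to 20.05 in lncKO, 19.89 to 20.08 in miR-205 KO and 19.10 to 19.39 in wild type and was set mainly by the bright Krt10 and Dsg1a. The mean log2 intensity of the 10, which weights them equally, was 12.97 to 13.30 in lncKO, 13.05 to 13.31 in miR-205 KO and 13.22 to 13.70 in wild type, with a median log2 change of -0.27 in lncKO and -0.23 in miR-205 KO, so the sum and the mean ran in opposite directions. Of 9 hair genes, 2 fell in lncKO (Tchh and Hoxc13) and 1 in miR-205 KO (Krt31), with summed log2 levels of 7.82 to 9.25 in lncKO, 8.40 to 8.89 in miR-205 KO and 8.06 to 12.90 in wild type. Of 5 measured sebaceous gland genes, Mgst1 and Scd3 rose in both knockouts, with summed log2 levels of 20.14 to 20.34 in lncKO, 20.07 to 20.39 in miR-205 KO and 19.29 to 19.64 in wild type. Of 7 pituitary hormone genes, Tshb rose and Gh fell in lncKO skin, and Tshb rose and Gh and Prl fell in miR-205 KO skin, with summed log2 levels of 7.04 to 7.19 in lncKO, 6.89 to 7.21 in miR-205 KO and 7.22 to 11.40 in wild type, the highest being array 1. Of 6 salivary gland genes, Bpifa2 and Amy1 rose in both knockouts, and none of 5 neutrophil or 2 measured myelin genes passed in either. The median log2 change of the 9 hair genes was -1.65 in lncKO and -1.75 in miR-205 KO. Their mean log2 intensity was 7.41 and 8.01 on wild-type arrays 1 and 2, above every knockout array. On wild-type array 3 it was 4.57, within the lncKO range of 4.41 to 5.31 and below the miR-205 KO range of 4.80 to 5.00. Several of the calls rest on dim probe sets. Of 9 skin arrays, Hoxc13 was at or below 16 on 8, Prl on 7, Gh on 6 and Krt31 on 5. Gh was not dim throughout, since it reached 2501 in wild-type skin. The marker calls are not given without wild-type arrays 1 and 2. The part of these cell types in the kallikrein result was not tested.

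Some of the genes that switch skin kallikreins off and on also passed, with each adjusted p from limma over all probe sets. Spink5, which encodes the inhibitor LEKTI, had 138753, 74266 and 93033 in lncKO skin, 106059, 122324 and 110712 in miR-205 KO skin, and 38471, 35057 and 36992 in wild-type skin. It rose by 1.42 ± 0.24 in lncKO (adjusted p = 0.00267) and by 1.62 ± 0.24 in miR-205 KO (adjusted p = 0.00126) on the log2 scale, with no overlap. So the main skin kallikrein inhibitor was higher in the same 6 arrays in which Klk5 and Klk7 were lower. Serpina12, or vaspin, which inhibits Klk7 in human and mouse, had 807, 894 and 741 in miR-205 KO skin and 1141, 1415 and 1416 in wild-type skin, a log2 change of -0.70 ± 0.21 (adjusted p = 0.037). A2m, a broad protease inhibitor, fell as well in miR-205 KO, by 1.38 ± 0.37 (adjusted p = 0.0248). These calls were lost under 8 (Serpina12) and 5 (A2m) of 18 alternative settings. For Serpina12 these include the fit without wild-type arrays 1 and 2, which keeps only 1 wild-type array. In lncKO neither passed (Serpina12 adjusted p = 0.146 and A2m adjusted p = 0.556). Of 6 inhibitors measured, 1 rose and 0 fell in lncKO, and 1 rose and 2 fell in miR-205 KO, with a median log2 change of 0.27 in both.

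Of 5 upstream proteases, 1 fell and 0 rose in each knockout. That gene was Prss8, prostasin, a membrane protease of the epidermal barrier, with 176 to 240 in lncKO skin, 159 to 213 in miR-205 KO skin, and 368 to 495 in wild-type skin. It fell by 1.07 ± 0.23 in lncKO (adjusted p = 0.00872) and by 1.12 ± 0.23 in miR-205 KO (adjusted p = 0.00637). Without wild-type arrays 1 and 2, which leaves 1 wild-type array, the log2 changes were -0.99 in lncKO and -1.05 in miR-205 KO. Calls are not read from that fit. St14, or matriptase, which can activate kallikrein precursors, did not pass, with log2 changes of -0.20 ± 0.36 in lncKO (adjusted p = 0.741) and -0.43 ± 0.36 in miR-205 KO (adjusted p = 0.437).

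Among the proteins that skin kallikreins cut, 7 of 9 listed genes were measured, and 2 rose and 2 fell in each knockout. Cdsn, which encodes corneodesmosin of the corneodesmosome, had 5047, 7547 and 7130 in lncKO skin, 4407, 7371 and 7864 in miR-205 KO skin, and 24463, 31949 and 25753 in wild-type skin. It fell by 2.07 ± 0.27 in lncKO (adjusted p = 5.23e-04) and by 2.10 ± 0.27 in miR-205 KO (adjusted p = 5.08e-04), with no overlap between the knockouts and wild type. Dsg1a, a desmoglein 1 gene of the same junctions, ran the opposite way and rose by 1.17 ± 0.23 in lncKO (adjusted p = 0.00551) and by 1.13 ± 0.23 in miR-205 KO (adjusted p = 0.00622). Dsg1c rose by 1.19 ± 0.24 in lncKO (adjusted p = 0.00657) and by 1.19 ± 0.24 in miR-205 KO (adjusted p = 0.00608). Without wild-type arrays 1 and 2, which leaves 1 wild-type array, Dsg1a changed by 0.97 in lncKO and 0.93 in miR-205 KO. Dsg1c changed by 1.00 in lncKO and 1.00 in miR-205 KO in that fit. Cdsn changed by -1.99 in lncKO and -2.02 in miR-205 KO without those arrays. Smpd1, acid sphingomyelinase, a lipid enzyme of the barrier, fell by 0.90 ± 0.25 in lncKO (adjusted p = 0.0264) and by 0.84 ± 0.25 in miR-205 KO (adjusted p = 0.034), calls that were lost under 8 settings in lncKO and 9 in miR-205 KO, of 18 alternatives, including the one without wild-type arrays 1 and 2. Junction genes thus moved in both directions. No probe set is named Flg or F2rl1 in the table, so those genes were not analysed here.

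**Figure D3:**
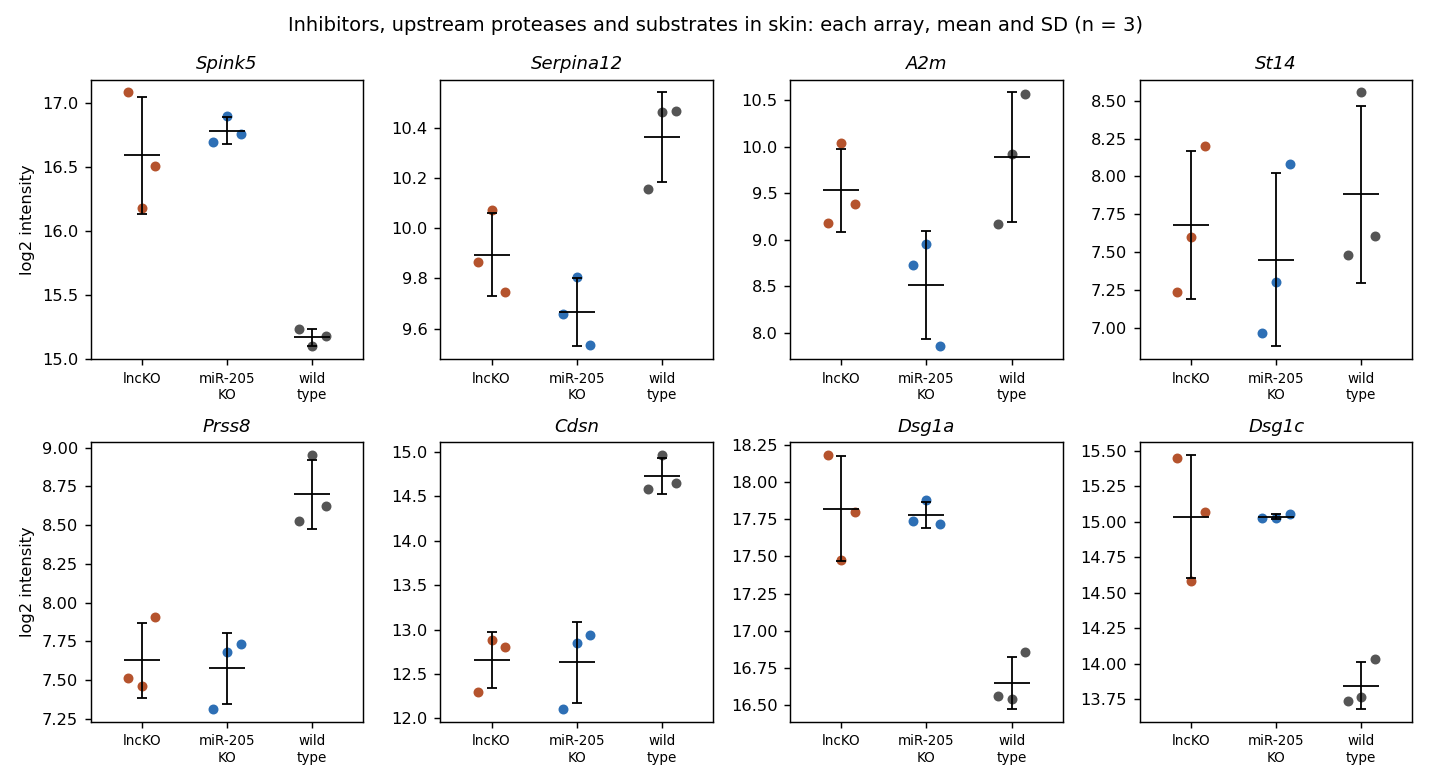
Log2 intensity (vertical axis, a scale of its own in each panel, not starting at 0) of Spink5, Serpina12, A2m, St14, Prss8, Cdsn, Dsg1a and Dsg1c on each skin array, with lncKO left, miR-205 KO in the middle and wild type right. Points are arrays and bars the mean ± SD (n = 3). All 6 knockout arrays lie above wild type for Spink5, Dsg1a and Dsg1c and below it for Prss8 and Cdsn, while the groups overlap for St14.

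Along chromosome 7 the genes run in the order Klk14, Klk13, Klk12, Klk11, Klk10, Klk9, Klk8, Klk7, Klk6, Klk5, Klk4, Klk15, the Klk1b genes and Klk1, in the RefSeq gene table. Klk9, which lies between Klk10 and Klk8, had 443, 530 and 706 in lncKO skin, 405, 471 and 879 in miR-205 KO skin, and 1161, 792 and 407 in wild-type skin. Its groups overlapped, with log2 changes of -0.39 ± 0.38 in each knockout (adjusted p = 0.514 in lncKO and 0.518 in miR-205 KO). The genes that fell were therefore interspersed with neighbours that did not pass. Of the 16 kallikrein genes outside the 9, 3 passed as lower in each knockout skin, all of the Klk1b group and all with a dim signal. Of all probe sets, 9.17% passed as lower in lncKO skin and 10.0% in miR-205 KO skin. Klk1b27, for example, had 10, 8 and 9 in lncKO skin, 8, 12 and 6 in miR-205 KO skin, and 44, 17 and 31 in wild-type skin. With values raised to 16 it no longer passed (adjusted p = 0.157 in lncKO and 0.151 in miR-205 KO).

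Genes of most alike pattern were ranked by Pearson r over the 9 arrays of the tissue in which a kallikrein was higher, among genes with a mean log2 intensity above 6. These r describe the arrays and carry no p, because the 9 points share groups, and a gene that differs between knockouts and wild type can reach a high value. The most alike genes in skin were Teddm3 (r = 0.995), Anxa9 (0.990) and Scamp5 (0.989) for Klk7, Rfx7 (0.985) for Klk5, Sh3glb2 (0.989) for Klk11, Tnfrsf1b (0.966) for Klk8 and Cd44 (0.980) for Klk13. Klk10 and Klk6 had lower values, with Ifnar1 at 0.946 and Rsl1 at 0.904. For Klk1 in pituitary the highest were Hmgb2 (0.948), H2ac8 (0.931) and AI467606 (0.930).

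In pituitary, Klk1 fell in miR-205 KO against wild type and did not pass in lncKO. Klk1 had 476, 604 and 985 in lncKO pituitary, 112, 124 and 161 in miR-205 KO pituitary, and 604, 323 and 581 in wild-type pituitary. The 3 miR-205 KO arrays lay below all other pituitary arrays, and the lncKO and wild-type arrays overlapped. The mean log2 intensity was 9.36 ± 0.53 in lncKO, 7.03 ± 0.27 in miR-205 KO and 8.92 ± 0.51 in wild type (SD, n = 3 arrays each). Klk1 changed by -1.89 ± 0.30 in miR-205 KO against wild type (3.70-fold), by 0.44 ± 0.30 in lncKO against wild type, and by 2.33 ± 0.30 in lncKO against miR-205 KO, on the log2 scale. In miR-205 KO against wild type, 1 of 9 kallikreins passed as lower and 0 as higher, where 0.0664% of all probe sets passed as lower and 0.0409% as higher. In lncKO against miR-205 KO 1 of 9 passed, where 0.291% of all probe sets did, and again nothing is read from either count. The call of Klk1 against wild type was lost when wild-type array 10 or 12, lncKO array 14 or miR-205 KO array 16, 17 or 18 was left out, although the log2 change stayed between -2.18 and -1.73. The call in lncKO against miR-205 KO was lost without lncKO array 14 or miR-205 KO array 16 or 17.

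**Figure D4:**
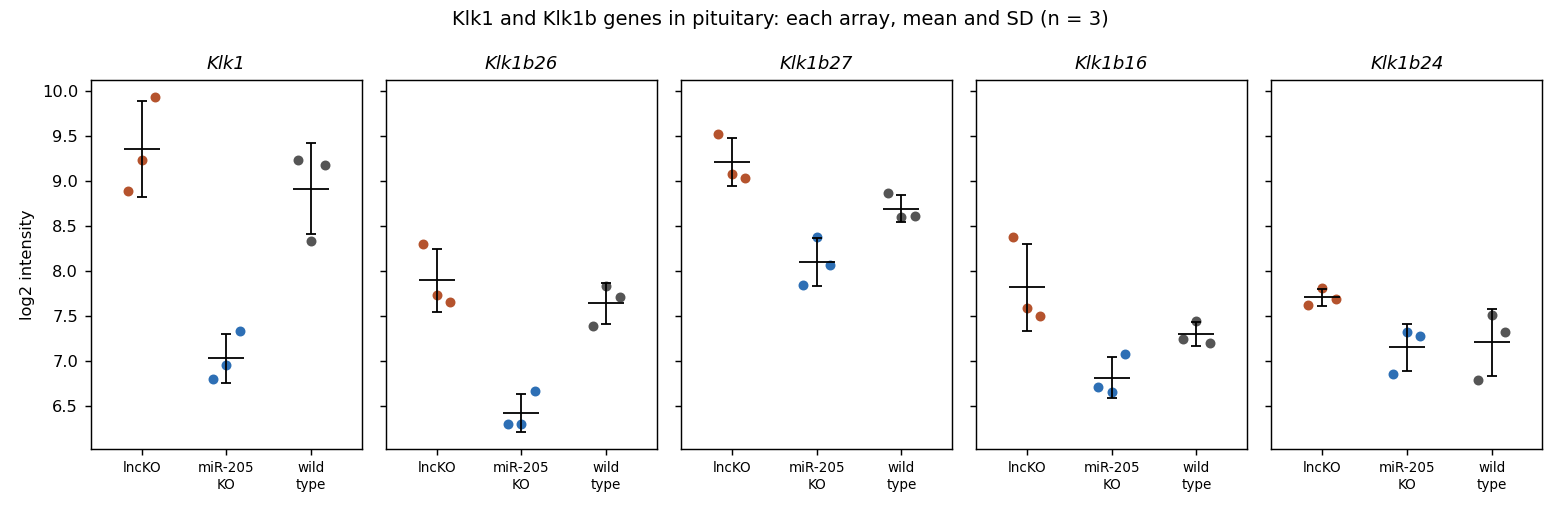
Log2 intensity (vertical axis) of Klk1, Klk1b26, Klk1b27, Klk1b16 and Klk1b24 on each pituitary array, with lncKO left, miR-205 KO in the middle and wild type right. Points are arrays and bars the mean ± SD (n = 3). The 3 miR-205 KO arrays of Klk1, at intensities of 112 to 161, lie below every other pituitary array.

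No kallikrein passed between lncKO pituitary and wild-type pituitary in limma's fit, where 0.342% of all probe sets passed as higher and 0.358% as lower. At an unadjusted p under 0.05, 2 of the 9 passed, where 12.5% of all probe sets did. Those were Klk11, which had 83, 50 and 72 in lncKO pituitary and 30, 36 and 36 in wild-type pituitary, and Klk8, which had 41, 36 and 51 in lncKO pituitary and 29, 28 and 34 in wild-type pituitary. The log2 differences were 0.98 ± 0.27 for Klk11 and 0.48 ± 0.19 for Klk8. The levels of these 2 genes were among those that chose the 9, so nothing is read from that count. Both genes stayed below their intensities on every skin array. In miR-205 KO pituitary Klk11 had 48, 24 and 28 and Klk8 had 34, 32 and 27, overlapping with wild type. Klk5, Klk6, Klk7, Klk10, Klk13 and Klk14 ranged from 8 to 50 in pituitary, and none of them passed between a knockout and wild type there.

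The Klk1b genes, a group that expanded in the mouse next to Klk1, were read in pituitary as well. Klk1b26 had 316, 213 and 202 in lncKO pituitary, 79, 79 and 102 in miR-205 KO pituitary, and 168, 228 and 210 in wild-type pituitary. Like those of Klk1, its 3 miR-205 KO arrays lay below all other pituitary arrays, but against wild type it did not pass (-1.22 ± 0.21, adjusted p = 0.0766), whereas lncKO against miR-205 KO did (1.47 ± 0.21, adjusted p = 0.0176), a call lost under 5 of 17 alternative settings (the floor at 16, and without array 13, 14, 16 or 17). Klk1b27 had 735, 544 and 527 in lncKO pituitary, 231, 334 and 269 in miR-205 KO pituitary, and 468, 390 and 392 in wild-type pituitary, with changes of -0.60 ± 0.20 in miR-205 KO against wild type (adjusted p = 0.534) and 1.11 ± 0.20 in lncKO against miR-205 KO (adjusted p = 0.0456), a call lost under 12 of 17 alternative settings. Klk1b16 and Klk1b24 passed in neither, with adjusted p = 0.694 and 0.981 against wild type and 0.108 and 0.358 in lncKO against miR-205 KO. In all, 0 of 16 further kallikreins passed against wild type in either knockout. In lncKO against miR-205 KO 3 passed, where 0.291% of all probe sets did, the third being the dim Klk1b22 (1.49 ± 0.24, adjusted p = 0.0285). That gene falls outside the rule for named genes and was named after its values were seen. Klk1 and the Klk1b genes are closely similar copies, and signal from sequence that they share cannot be told apart here.

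Genes of the kinin pathway, on which Klk1 acts, did not pass in pituitary: 0 of 5 in either knockout. Bdkrb2, the B2 kinin receptor, came closest, with 90, 194 and 200 in lncKO pituitary and 548, 391 and 540 in wild-type pituitary, a log2 difference of -1.68 ± 0.34 just above the threshold (adjusted p = 0.05 after rounding). It was singled out after its values were seen. In skin 2 of 5 rose in each knockout. Kng2, a kininogen gene, had 386, 276 and 320 in lncKO skin, 256, 182 and 237 in miR-205 KO skin, and 37, 74 and 68 in wild-type skin, a rise of 2.51 ± 0.28 in lncKO (adjusted p = 2.41e-04) and 1.96 ± 0.28 in miR-205 KO (adjusted p = 9.45e-04). Bdkrb1, the B1 kinin receptor, rose by 1.30 ± 0.24 in lncKO (adjusted p = 0.00387) and by 0.74 ± 0.24 in miR-205 KO (adjusted p = 0.0493), at intensities of 20 to 37 in the knockouts and 11 to 18 in wild type. The call of Bdkrb1 in miR-205 KO was lost under 13 of 18 alternative settings. None of the salivary gland, hormone or other marker lists had a member that passed in either pituitary knockout. The salivary genes averaged a log2 intensity of 3.93 to 4.33 on the pituitary arrays, with summed log2 levels of 7.89 to 8.61 in lncKO, 7.38 to 7.90 in miR-205 KO and 7.52 to 7.57 in wild type. Amy1, an amylase gene of that list, was above the floor on all 9 pituitary arrays, between 99 and 330, and the part of salivary tissue in the Klk1 result was not tested.

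The knockout effects were also compared between tissues. For lncKO, 5 of 9 kallikreins differed in effect, pituitary minus skin (Klk5, Klk7, Klk8, Klk11 and Klk13), where 9.25% of all probe sets did. For miR-205 KO, 6 of 9 did, Klk1 in addition to those named, where 9.95% of all probe sets did. The median difference of the 9 was 1.59 for lncKO and 1.44 for miR-205 KO, against 0.08 for all probe sets in both. The skin kallikreins were near the floor in pituitary, so a fall there could hardly be seen, and the difference holds that limit.

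Promoters of the genes were read from RefSeq (GRCm38.p6, 250 bases before to 50 after the start of a transcript, plus strand), in which all 9 kallikreins matched. Klk7 is shown as a skin kallikrein that fell in both knockouts, Klk10 as a neighbour that did not, and Klk1 with Klk1b26 as a pair of related genes that both passed in pituitary between lncKO and miR-205 KO. Capitals mark CACCC, the core that Krüppel-like factors of epithelia bind, or GGGTG, its complement. Klk7 spans chr7:43811044-43811343, Klk10 chr7:43780804-43781103, Klk1 chr7:44225110-44225409 and Klk1b26 chr7:44012428-44012727.
Klk7: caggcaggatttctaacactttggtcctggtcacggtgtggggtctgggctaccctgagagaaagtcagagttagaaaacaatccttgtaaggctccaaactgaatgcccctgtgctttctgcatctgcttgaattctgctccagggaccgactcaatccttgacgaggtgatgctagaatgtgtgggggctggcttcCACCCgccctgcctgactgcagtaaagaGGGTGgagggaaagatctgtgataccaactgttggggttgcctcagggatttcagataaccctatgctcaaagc
Klk10: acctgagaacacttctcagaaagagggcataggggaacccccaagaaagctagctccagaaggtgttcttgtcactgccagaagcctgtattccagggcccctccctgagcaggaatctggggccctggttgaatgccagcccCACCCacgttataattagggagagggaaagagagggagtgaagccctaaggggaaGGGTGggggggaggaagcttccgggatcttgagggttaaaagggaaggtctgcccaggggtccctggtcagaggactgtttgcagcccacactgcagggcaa
Klk1: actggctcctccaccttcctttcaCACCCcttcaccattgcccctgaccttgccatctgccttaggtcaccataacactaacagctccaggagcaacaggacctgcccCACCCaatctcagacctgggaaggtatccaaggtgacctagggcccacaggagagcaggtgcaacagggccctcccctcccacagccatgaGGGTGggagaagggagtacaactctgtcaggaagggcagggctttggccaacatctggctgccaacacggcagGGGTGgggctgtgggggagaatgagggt
Klk1b26: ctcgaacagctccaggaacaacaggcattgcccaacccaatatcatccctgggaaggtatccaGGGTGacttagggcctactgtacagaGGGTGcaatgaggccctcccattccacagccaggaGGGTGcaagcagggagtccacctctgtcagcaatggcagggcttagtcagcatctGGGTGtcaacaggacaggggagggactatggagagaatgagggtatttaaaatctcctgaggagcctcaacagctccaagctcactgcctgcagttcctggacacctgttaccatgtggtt

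CACCC, searched on both strands, was found in 8 of the 11 promoters that RefSeq lists for the 9 kallikreins, and in 57.5% of 32851 promoters of the same length. The single promoter of Klk8 and 1 of 2 promoters each of Klk11 and Klk6 lacked it. TGANTCA, the motif of AP-1 factors, was in 0 of the 11, against 7.81% of all promoters, and TATAAA in 0 of the 11, against 13.6%. None of the 3 motifs is part of another. A gene that fell (Klk7) and a gene that did not (Klk10) both hold CACCC, so the match does not separate them. Aligned locally, the promoter of Klk1 was 81.0% identical to that of Klk1b26 over 221 columns, and 76.8% to 85.7% identical to those of the 13 Klk1b genes. Alignments used the first listed promoter of each gene, so the second promoters of Klk11 and Klk6 were not aligned. Between the 9 kallikreins themselves no alignment had more than 30 identical columns. The promoters aligned thus share no long stretch of sequence, among the skin kallikreins or with Klk1.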

How the data were processed

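The authors deposited a table of intensities, whole numbers on a linear scale, with 1 value for each probe set on each array. How background, summarisation and normalization were handled is not given in the sources used. Of 22206 probe sets, 19572 carried 1 gene symbol in the platform table, 0 carried several and 2634 none, and all 19572 matched the RefSeq gene table (GRCm38.p6). Array medians lay between 82 and 96, and an intensity of 16 or less was held by 22.8% to 25.3% of probe sets on each array. The deposited intensities were turned into log2 values without a pseudocount or further normalization. Pearson correlations of log2 intensities across genes, which are not independent replicates, were 0.970 to 0.993 between skin arrays and 0.987 to 0.993 between pituitary arrays.

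Groups were compared with limma 3.58.1 in R 4.3.3 (lmFit and eBayes, two-sided). Adjustment was by Benjamini-Hochberg across the 19572 named probe sets, at a threshold of 0.05. The 9 arrays of a tissue shared a fit, and comparisons across tissues used all 18 arrays. The fitting step was tested on simulated data. The number of arrays limits the precision, with a median standard error of 0.26 in skin and 0.21 in pituitary on the log2 scale. Alternatives were quantile normalization, median centring, a floor at 16, a filter at log2 4, a variance trend with robust moderation, other sets of arrays or probe sets in the fit, and leaving out each array. Leaving out wild-type skin arrays 1 and 2 together was added after seeing the data. The kallikreins and the lists of related and marker genes were chosen with earlier results of these data known. Named were the 9 kallikreins, other kallikreins with a group mean above log2 6, up to 4 genes past the threshold per related list and comparison, Spink5, St14, Prss8 and Cdsn in any case, and the 3 most alike genes. Motifs and local promoter alignments were computed from RefSeq sequences, and MIR205HG and miR-205 levels were not analysed here.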

Additional observations from a re-analysis of the deposited data

Results flagged for a closer look

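The kallikreins listed here passed the interaction contrast between tissue and knockout in limma's fit of all 18 arrays, which is given as a description only. Values are log2 fold changes against wild type in pituitary minus those in skin. For lncKO the difference was 2.73 for Klk13, 2.66 for Klk11, 2.47 for Klk8, 1.79 for Klk5 and 1.59 for Klk7. For miR-205 KO it was 2.39 for Klk13, 1.61 for Klk5, 1.54 for Klk11, 1.52 for Klk7 and 1.44 for Klk8, and it was -1.81 for Klk1. The levels behind these differences were among those that chose the genes, and tissue and sex cannot be told apart. Klk5, Klk7, Klk8, Klk11 and Klk13 were near the floor in pituitary and Klk1 was near it in skin, so a fall there could hardly be seen.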

How the results depend on the processing

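Under the alternatives, none of the fold changes that passed changed sign (0 of 1083 values), while of those that did not pass 73 of 1503 did. A call was lost for 105 values and gained for 4. In skin, Klk7, Klk8 and Klk11 passed in both knockouts under every alternative that kept more than 1 wild-type skin array. The levels chose these genes, so that is a description only. Kallikreins called in miR-205 KO skin numbered 3 with the floor at 16, against 5 as reported, since Klk5 and Klk13 no longer passed. Klk13 also lost its call there without miR-205 KO array 7 or 9. Without wild-type skin arrays 1 and 2 only 1 wild-type array is left, so no count is given for that fit. In miR-205 KO pituitary against wild type, where 1 was reported, the count was 0 with the floor, 0 with only the groups compared and 0 with every probe set tested, and it ran from 0 to 1 when single arrays were left out. In lncKO against miR-205 KO pituitary it was 0 with the floor and ran from 0 to 1 when single arrays were left out. The floor raised no Klk1 value in pituitary, where the lowest was 112. Its log2 changes there stayed at -1.89 against wild type in miR-205 KO and 2.33 in lncKO against miR-205 KO. The cause of the lost calls was not tested. Interaction calls were lost for Klk13 under 2 alternatives in lncKO and 7 in miR-205 KO, and for Klk5 under 5 in miR-205 KO. Levels at or below 16 limit what can be said of Klk14 everywhere and of Klk5 and Klk10 in pituitary. The same holds in part for Klk1, at or below 16 on 6 of 9 skin arrays. Klk13 was at or below 16 on 4 of 9 skin arrays and 2 of 9 pituitary arrays. No paired analysis was run, because the labels do not say whether any skin and pituitary samples came from the same mouse.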
